A study of Mus musculus with 6 samples.

Results

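The 34 genes described here encode the machinery that acidifies lysosomes and senses nutrients on their surface. They are 17 genes of the V-ATPase, the proton pump of lysosomes, with 5 of Ragulator, 5 of the Rag GTPases and folliculin complex, 3 of the kinase complex mTORC1, the transcription factor genes Tfeb, Tfe3 and Mitf, and the channel gene Mcoln1. They were chosen by gene name from a table of 54966 features, and all 34 names were found once. RNA had been sequenced from macrophages sorted from mouse skeletal muscle at day 3 after injection of barium chloride, a salt that destroys muscle fibres and starts their regeneration. The sort kept CD11b-positive, F4/80-positive cells with little Ly6C, which the labels call pro-repair macrophages. Both groups were labelled as wild-type and were injured, 3 libraries from young and 3 from old mice. The name of the deposited sheet also carries the names R26 and Cx3Cr1, which the sample labels do not explain. The labels give no ages in weeks or months, no sex, no uninjured muscle and no word on whether each library came from its own animal. The p-values therefore measure only how these libraries vary, part of which may be technical, and age cannot be told apart from other differences between the groups of mice.

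The V-ATPase splits ATP in a cytosolic V1 sector and drives protons through a membrane V0 sector, which gives lysosomes the low pH their enzymes need. When amino acids are plentiful, the pump and Ragulator activate the Rag GTPases, which bring mTORC1 to the lysosome, where it phosphorylates TFEB and TFE3 and keeps them in the cytoplasm. When mTORC1 leaves, the factors enter the nucleus and bind the sequence CACGTG, the core of the CLEAR element found near the starts of many lysosomal genes, V-ATPase genes among them. Macrophages that clear dead fibres depend on this system to digest what they engulf.

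Promoter sequences are shown first, to give which of these genes hold that core near their starts. RefSeq windows from 250 bases before to 50 bases after a gene's start (build GRCm38.p6) were found for 28 of the 34 members. The palindrome CACGTG, which reads the same on both strands, was present for 9 of the 28 (32.1%), against 8.09% of the 27025 genes with a window. The longer palindrome TCACGTGA, which contains CACGTG, was present for 4 of the 28 (14.3%), against 1.12% of all genes. A related letter string, TCATGTGA or its reverse complement TCACATGA, which does not contain CACGTG, was found for Atp6v0c, Lamtor1 and Lamtor2 (10.7%, against 1.15% of all genes). Lamtor1 holds CACGTG as well. Some genes have several windows, with 37 for the 28 members and 32851 for the 27025 genes. Counted by window, CACGTG was present in 9 of the 37, against 7.15% of all windows. A match is a run of letters and not a measured binding site.

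The 4 stretches that hold TCACGTGA belong to a V1 subunit, 2 V0 subunits and the lysosomal calcium channel. Capitals mark each CACGTG, widened to TCACGTGA where those letters are present.
Atp6v1a, chr16:44139361-44139414, minus strand: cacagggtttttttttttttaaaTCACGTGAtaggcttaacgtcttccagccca
Atp6v0d1, chr8:105566045-105566091, minus strand: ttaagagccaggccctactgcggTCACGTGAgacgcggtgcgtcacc
Atp6v0e, chr17:26676375-26676415, plus strand: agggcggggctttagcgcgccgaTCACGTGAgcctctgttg
Mcoln1, chr8:3500424-3500503, plus strand: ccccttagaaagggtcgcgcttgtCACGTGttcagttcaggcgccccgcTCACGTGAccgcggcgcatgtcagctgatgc
The Mcoln1 stretch holds CACGTG at 71 and again at 45 bases before the RefSeq start, the second within TCACGTGA. In Atp6v1a CACGTG, within the marked letters, begins 131 bases before the start, in Atp6v0d1 3 bases before it, and in Atp6v0e at base 4 of the transcript. The other 5 members with CACGTG are a proton-ring gene, 2 Ragulator genes, a Rag gene and a folliculin partner.
Atp6v0b, chr4:117887318-117887389, minus strand: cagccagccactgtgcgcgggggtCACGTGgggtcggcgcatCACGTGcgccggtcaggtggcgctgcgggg
Lamtor1, chr7:101905745-101905798, plus strand: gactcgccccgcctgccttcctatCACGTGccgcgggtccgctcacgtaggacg
Lamtor4, chr5:138255338-138255407, plus strand: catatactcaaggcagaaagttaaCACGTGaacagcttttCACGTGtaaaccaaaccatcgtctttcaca
Rragc, chr4:123917297-123917350, plus strand: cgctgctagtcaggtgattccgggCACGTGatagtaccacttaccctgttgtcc
Fnip1, chr11:54438080-54438133, plus strand: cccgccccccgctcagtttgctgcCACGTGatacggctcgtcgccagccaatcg
Atp6v0b and Lamtor4 hold CACGTG at 2 places each.

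Expression was given as FPKM, the fragments assigned to a gene divided by its length and by library size, so levels can be compared between genes. The 6 libraries held between 16543939 and 19400929 fragments, as recovered from the steps of the FPKM values. The cells carried macrophage transcripts. Summed over 10 macrophage markers, of which Lyz2 made up most, the level was 15820 to 18410 FPKM in young and 16120 to 19530 in old. Markers of T and NK cells summed to at most 0.464 FPKM, with Cd3e, Cd3g and Ncr1 at 0 in all 6 libraries. Neutrophil markers summed to 34.9 to 42.9 FPKM in young and 39.8 to 51.0 in old, most of it Csf3r, with Ly6g at 0 throughout. Markers of muscle fibres and myoblasts were low and did not overlap, at 14.2 to 18.2 FPKM in young and 5.60 to 9.32 in old. Nor did fibroblast markers, at 2.96 to 5.71 FPKM in young and 1.07 to 2.31 in old. The part of these cells in the results was not tested. Differences between young and old were tested with limma on log2(FPKM + 1), two-sided, for the 11108 genes that averaged 1 FPKM or more. The p-values were adjusted over all of these by Benjamini-Hochberg, and a gene passed at an adjusted p under 0.05. Log2 changes are given on that scale, old minus young.

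Most pump genes were more abundant than most sensor genes, though the ranges overlapped. Of the 34 members, 30 lay above 6.67 FPKM, the median of all tested genes. The 10 highest members were all V-ATPase genes, from Tcirg1 at a mean of 168 FPKM over the 6 libraries to Atp6v0c at 94.3. Rragc at 73.0 and Flcn at 51.6 FPKM followed, and the 5 Ragulator genes lay within 23.4 to 49.8 FPKM. The mTORC1 genes were among the lowest, with Rptor at 5.19, Mtor at 4.90 and Mlst8 at 2.57 FPKM. Rragd, at 0.956 FPKM, was the single member under the 1 FPKM minimum and was not tested.

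**Figure D1:**
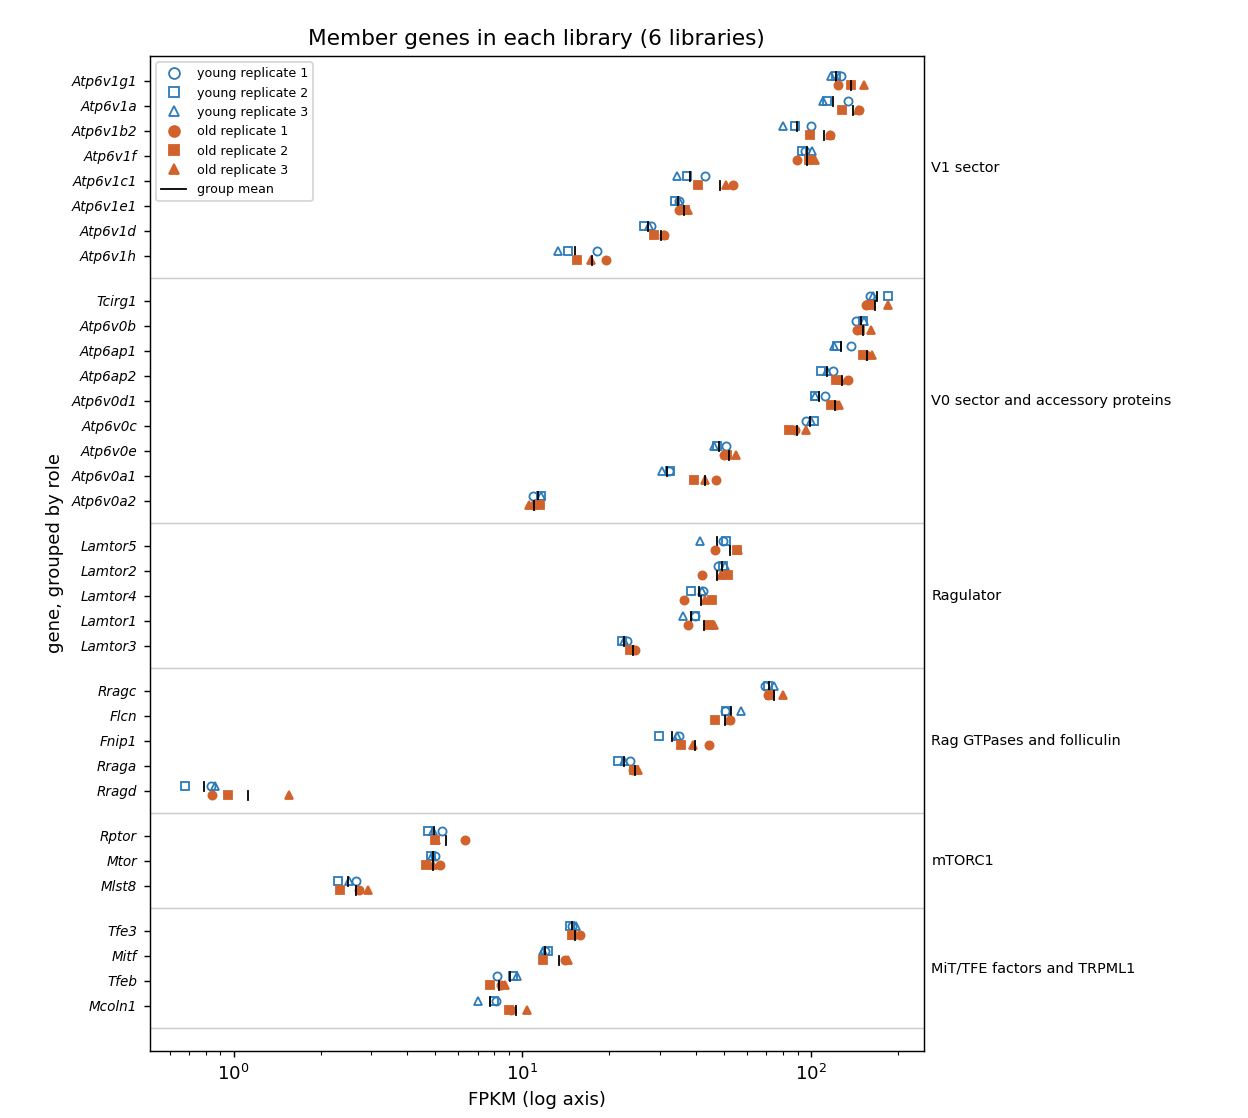
Level of each of the 34 members in each of the 6 libraries, in FPKM on a log axis, with genes grouped by role; open symbols are young, filled symbols old, and black ticks are group means. V-ATPase genes have means from 11.2 to 168 FPKM, the 3 mTORC1 genes lie between 2.30 and 6.31, and the groups lie close together for most genes.

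No member passed the threshold, where 0.018% of all tested genes did with higher and 0.018% with lower levels in old (0.036% in all, 4 of 11108). The smallest adjusted p among members was 0.139, for Atp6v0a1. At an unadjusted p under 0.05, 7 of the 33 tested members were higher in old and 0 lower, against 8.84% of all genes higher and 6.18% lower. These counts were 3 higher and 1 lower after rescaling to TPM, 2 and 1 without old replicate 3, and 3 and 0 without young replicate 2 or without young replicate 3. With array weights 13 were higher, and with no minimum level 11 of 34, and 0 lower in both. Shares of all genes under these other settings are not given, so the counts under them cannot be read against 8.84% and 6.18%. Every old library lay above every young one for 10 of the 33 and below for 1, against 12.3% and 8.59% of all genes. Log2 changes were above 0 for 26 of the 33, against 53.1% of all genes. With the libraries rescaled to TPM, that is, to equal sums, they were above 0 for 21 of the 33. The share of all genes above 0 is not given for that setting, so 53.1% does not apply to it. The median log2 change of the members was 0.11, beside 0.01 over all tested genes. After rescaling it was 0.06, beside -0.04. These counts describe the members and are not a test of them. Of the 10 macrophage markers, 5 had every old library above every young one. An unadjusted p under 0.05 was reached by 4, all higher in old. Among these 4 were the genes of the sort markers, Itgam (log2 change 0.39, limma adjusted p = 0.169) and Adgre1 (0.30, limma adjusted p = 0.2). Changes were above 0 for 8 of the 10 and below 0 for Csf1r (-0.23, limma adjusted p = 0.445) and Lyz2 (-0.08, limma adjusted p = 0.867). The part of these marker changes in the members' values was not tested. In RNA from a whole cell population, fewer cells of a kind and less RNA per cell cannot be told apart.

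**Figure D2:**
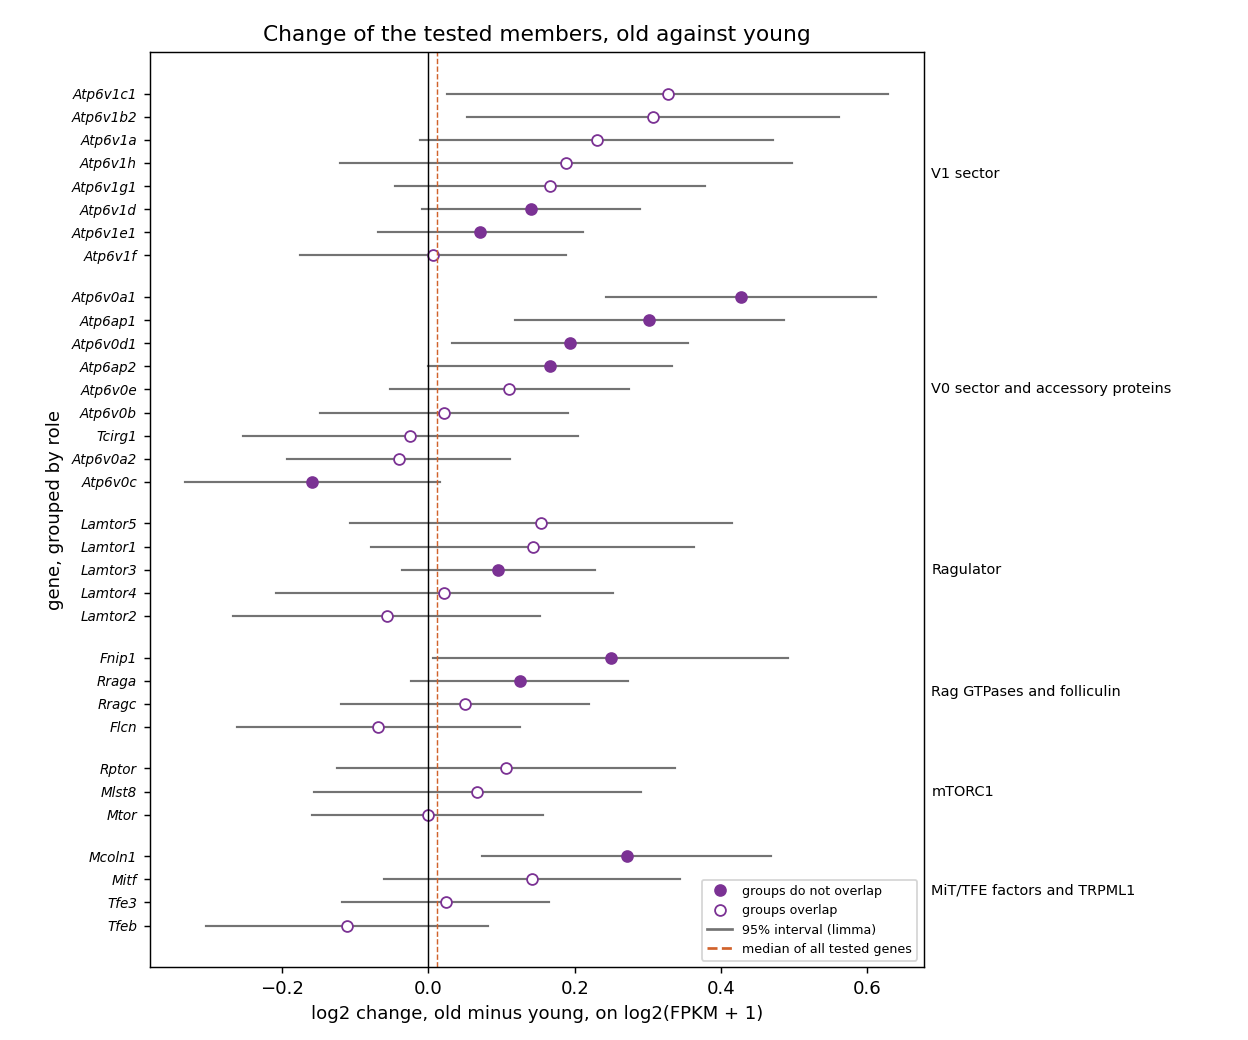
Log2 change (old minus young, on log2(FPKM + 1)) of the 33 tested members, grouped by role, with 95% intervals from limma; filled points are genes whose young and old libraries do not overlap, and the dashed line is the median of all tested genes. The V0 sector runs from -0.16 for Atp6v0c to 0.43 for Atp6v0a1, and 7 of the 33 intervals lie above 0 while none lies below.

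In the V1 sector, where ATP is split, all 8 genes had log2 changes above 0, with a median of 0.18, though the change of Atp6v1f lay below 0 after rescaling to TPM and under 4 of the 6 omissions of a library. None of the 8 passed in limma, an unadjusted p under 0.05 was reached by 2 with higher and 0 with lower levels in old (8.84% and 6.18% of all genes), and 2 did not overlap between groups, or 25%, beside 20.9% of all genes. Atp6v1a encodes the catalytic A subunit, and it read 135, 113 and 110.1 FPKM in young libraries 1, 2 and 3, and 147, 128 and 145 in the old ones. Young replicate 1 reached above old replicate 2, so the groups overlapped, with a log2 change of 0.23 (95% interval -0.01 to 0.47, limma adjusted p = 0.35). Atp6v1b2, the B subunit that forms the catalytic head with A, read 99.8, 88.3 and 79.9 FPKM in young and 117, 99.0 and 116 in old. Its log2 change was 0.31 (SE 0.107, limma adjusted p = 0.267), and again young replicate 1 and old replicate 2 crossed. Atp6v1c1, part of the stator that locks V1 onto V0, had the largest log2 change of the sector, 0.33 (SE 0.127, limma adjusted p = 0.301), from 42.9, 37.2 and 34.4 FPKM in young to 53.6, 40.4 and 50.7 in old.

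Atp6v1h, which regulates the joining of the sectors, repeated this order, with young replicate 1 (18.1 FPKM) above old replicates 2 (15.5) and 3 (17.3). Separated groups with small differences were seen for the rotor gene Atp6v1d, 27.2 ± 0.746 FPKM in young and 30.1 ± 1.37 in old (SD, n = 3 per group), and for the peripheral stalk gene Atp6v1e1, 34.6 ± 0.668 and 36.4 ± 1.24 FPKM. Their log2 changes were 0.14 (limma adjusted p = 0.353) and 0.07 (limma adjusted p = 0.623). For Atp6v1e1 the gap was very narrow, from 34.99 FPKM in young replicate 1 to 35.03 in old replicate 1. The stalk gene Atp6v1g1 read 122 ± 4.90 and 138 ± 13.9 FPKM (0.17, limma adjusted p = 0.439). The rotor gene Atp6v1f was at 96.5 ± 3.92 and 97.1 ± 6.98 FPKM, with a 95% interval of the log2 change from -0.18 to 0.19.

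In the V0 sector and its accessory proteins, 6 of 9 genes had log2 changes above 0 and 3 below, with a median of 0.11. None of the 9 passed in limma, an unadjusted p under 0.05 was reached by 3 with higher and 0 with lower levels in old (8.84% and 6.18% of all genes), and the groups stood apart for 5, or 55.6%, beside 20.9% of all genes. Atp6v0a1, on chromosome 11 from 101009452 to 101063719 (GRCm38), encodes the a1 isoform of the large subunit that carries protons across the membrane and directs the pump to its compartment. It read 32.2, 32.4 and 30.5 FPKM in young and 46.7, 39.4 and 43.1 in old. All 3 old libraries were above all 3 young ones, and the log2 change was 0.43 (SE 0.0779, 95% interval 0.24 to 0.61, limma adjusted p = 0.139). Over 15 other settings its change stayed between 0.37 and 0.49 and its limma adjusted p between 0.0536 and 0.396. Behind each value were 3410 to 5475 fragments per library.

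The other isoforms of that subunit did not share this pattern. Tcirg1 encodes a3, the isoform known from osteoclasts and secretory lysosomes, and was the most abundant of the 34 members. It read 160.2, 185 and 164 FPKM in young and 155, 161 and 185 in old. The groups overlapped, and the 95% interval of the log2 change ran from -0.25 to 0.20. Atp6v0a2, the isoform known from the Golgi and endosomes, was at 11.4 ± 0.424 and 11.02 ± 0.51 FPKM, with an interval from -0.19 to 0.11. Atp6v0a4, the kidney isoform, was listed at 0 in every library. As a share of the summed FPKM of these isoform genes, Atp6v0a1 made up 15.8%, 14.2% and 14.8% in young and 21.996%, 18.6% and 18.02% in old. The Tcirg1 share was 78.8%, 80.8% and 79.6% in young and 72.9%, 75.9% and 77.6% in old. Neither share overlapped between groups, and leaving out any 1 library kept the difference for Atp6v0a1 between 3.39 and 5.37 percentage points. These shares follow from the FPKM above and were not tested separately.

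**Figure D3:**
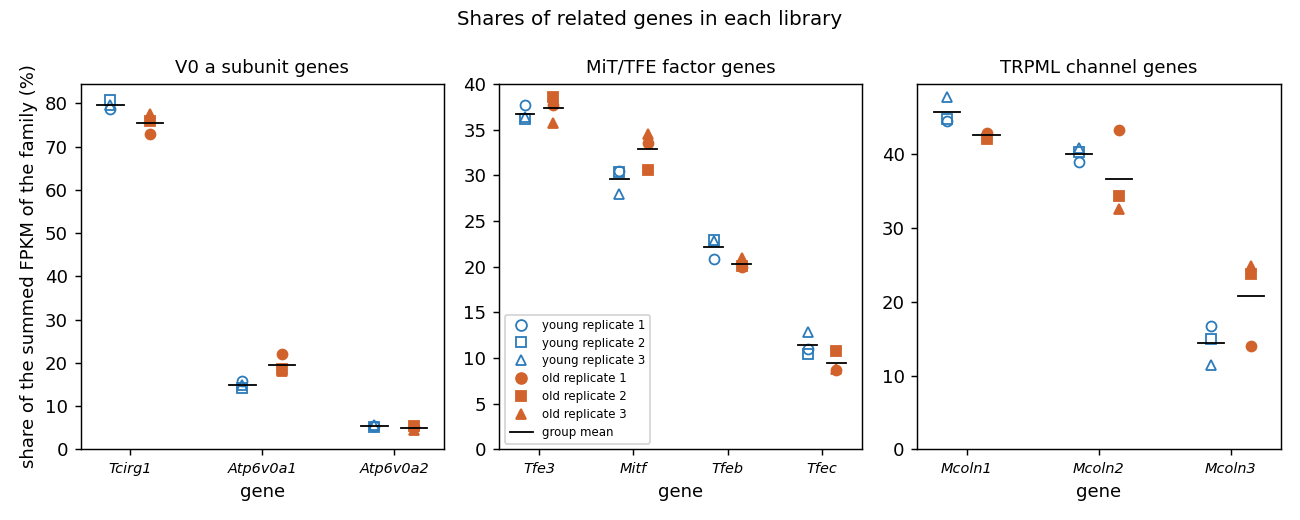
Share of each gene in the summed FPKM of its family, in percent, for the V0 a subunit genes, the MiT/TFE factor genes and the TRPML channel genes; each symbol is 1 library, open for young and filled for old, and black ticks are group means. The Atp6v0a1 share is higher in all 3 old libraries (18.02% to 21.996%) than in the young ones (14.2% to 15.8%), and the Tcirg1 share is lower.

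Atp6ap1 encodes Ac45, an accessory protein that helps assemble and target the pump, and lies on chromosome X from 74297097 to 74304721. It read 137, 123 and 119.7 FPKM in young and 155, 151 and 163 in old, with no overlap. The log2 change was 0.30 (SE 0.0778, 95% interval 0.12 to 0.49, limma adjusted p = 0.184). Its partner Atp6ap2, also called the prorenin receptor, was at 114 ± 5.17 and 128 ± 5.90 FPKM, again with separated groups (0.17, limma adjusted p = 0.334). Atp6v0d1, which couples the rotor to the proton ring, read 112, 103 and 104 FPKM in young and 123, 117 and 125 in old (0.19, SE 0.0682, limma adjusted p = 0.27). The lowest old library lay above the highest young one.

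Atp6v0c, on chromosome 17 from 24163866 to 24169702, encodes the c subunit that forms most of the proton ring, and was the single member whose old libraries all lay below the young ones. It read 96.2, 102 and 99.7 FPKM in young and 87.7, 83.7 and 95.9 in old, which is -0.16 on the log2 scale (SE 0.0736, limma adjusted p = 0.372). A processed copy, Atp6v0c-ps2, was listed at 5.53 to 8.24 FPKM, so the division of fragments between copies is uncertain. Atp6v0b, the second ring subunit, was at 149 ± 4.90 and 151 ± 8.59 FPKM (95% interval -0.15 to 0.19), and the small subunit gene Atp6v0e at 48.2 ± 2.34 and 52.1 ± 2.56 (0.11, limma adjusted p = 0.509).

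Ragulator holds the Rag GTPases on the lysosome, and no clear difference between the groups was seen in its genes. None of the 5 passed in limma, and 0 had an unadjusted p under 0.05 (8.84% of all genes higher and 6.18% lower). Changes were above 0 for 4 of the 5, beside 53.1% of all genes, and the median log2 change was 0.10. Lamtor1, the lipid-anchored scaffold, read 39.5, 39.5 and 36.1 FPKM in young and 37.4, 44.3 and 46.0 in old (0.14, limma adjusted p = 0.529). The roadblock-domain genes Lamtor2 and Lamtor3 form one pair. Lamtor2 was at 49.2 ± 1.49 and 47.4 ± 5.03 FPKM (-0.06), and Lamtor3 at 22.6 ± 0.409 and 24.2 ± 0.445 FPKM (0.10), the single Ragulator gene whose groups did not overlap. Of the 5, 20% thus did not overlap, beside 20.9% of all genes. The other pair, Lamtor4 and Lamtor5, was at 40.9 ± 2.24 and 41.6 ± 4.79 FPKM (0.02), and at 47.1 ± 5.22 and 52.5 ± 5.29 FPKM (0.15). Directions for Lamtor2 and Lamtor4 changed with 1 library left out, and that of Lamtor4 also after rescaling to TPM. For 4 of the 5, old replicate 1 was the lowest old library, beside 38.0% of all tested genes.

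The Rag GTPases work as pairs of RagA or RagB with RagC or RagD, and in these cells A and C supplied nearly all transcripts. Rraga read 23.6, 21.4 and 22.5 FPKM in young and 24.3, 24.4 and 25.2 in old, separated by a small margin (0.12, SE 0.0625, limma adjusted p = 0.405). Rragb was at 0.496 ± 0.145 and 0.391 ± 0.121 FPKM and was not tested. Rragc was at 71.7 ± 2.69 and 74.3 ± 4.68 FPKM (95% interval of the log2 change -0.12 to 0.22). Rragd, a known TFEB target, read 0.836, 0.678 and 0.863 FPKM in young and 0.843, 0.954 and 1.56 in old, from 59 to 148 fragments per library. Old replicate 3 was well above every other library, old replicate 2 slightly above the young ones, and old replicate 1 within the young range. With no minimum level the Rragd change was 0.23 (limma adjusted p = 0.73).

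Folliculin and its partners act on RagC and RagD and so decide whether TFEB is held by mTORC1. Flcn was at 52.8 ± 3.90 FPKM in young and 50.3 ± 3.28 in old (-0.07, limma adjusted p = 0.742). Fnip1, on chromosome 11 from 54438199 to 54518235, read 35.0, 29.8 and 34.4 FPKM in young and 44.3, 35.4 and 39.0 in old (0.25, SE 0.103, limma adjusted p = 0.324). The groups were separated, narrowly between young replicate 1 and old replicate 2. Fnip2, the related partner, overlapped at 36.4 ± 7.44 and 40.3 ± 6.996 FPKM.

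The mTORC1 genes overlapped between groups. Mtor, the kinase, read 4.995, 4.82 and 4.89 FPKM in young and 5.19, 4.63 and 4.89 in old, a log2 change of 0.00 with a 95% interval from -0.16 to 0.16. Rptor, the scaffold that presents substrates, was at 4.95 ± 0.275 and 5.43 ± 0.762 FPKM (0.11, interval -0.12 to 0.34), and its highest value, 6.31, was in old replicate 1. Mlst8, which stabilises the kinase domain, was at 2.49 ± 0.178 and 2.66 ± 0.3 FPKM (0.07, interval -0.16 to 0.29). None of the 3 passed in limma, and 0 had an unadjusted p under 0.05 (8.84% of all genes higher and 6.18% lower). Groups did not overlap for 20.9% of all genes.

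The transcription factor genes Tfeb, Tfe3 and Mitf overlapped between groups as well. Tfeb read 8.17, 9.29 and 9.62 FPKM in young and 8.41, 7.71 and 8.71 in old, a log2 change of -0.11 (SE 0.0813, 95% interval -0.30 to 0.08, limma adjusted p = 0.57). Tfe3 was at 14.9 ± 0.343 and 15.2 ± 0.584 FPKM (interval -0.12 to 0.17). Mitf, best known from pigment cells and osteoclasts, read 11.99, 12.3 and 11.8 FPKM in young and 14.1, 11.7 and 14.4 in old (0.14, limma adjusted p = 0.494). Old replicates 1 and 3 lay above the young libraries, and old replicate 2 was level with the lowest of them. Tfec, a family member made in macrophages, was at 4.66 ± 0.654 and 3.82 ± 0.299 FPKM with every old library below the young ones (-0.23, limma adjusted p = 0.35). Transcript levels say nothing of where these factors were in the cell.

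Mcoln1, on chromosome 8 from 3500457 to 3515232, encodes TRPML1, the lysosomal channel whose calcium release activates calcineurin and frees TFEB. Its stretch shown above holds CACGTG at 2 places, as do those of Atp6v0b and Lamtor4, whose log2 changes were 0.02 each. Mcoln1 read 8.12, 7.97 and 7.03 FPKM in young and 9.16, 8.97 and 10.4 in old, with no overlap. The log2 change was 0.27 (SE 0.0834, 95% interval 0.07 to 0.47, limma adjusted p = 0.226). Mcoln3 was at 2.47 ± 0.697 FPKM in young and 4.69 ± 1.54 in old (0.70, limma adjusted p = 0.255), and old replicate 1 at 3.00 lay within the young range. Mcoln2 was at 6.77 ± 0.654 and 8.15 ± 0.987 FPKM (0.23, limma adjusted p = 0.347), and like Mcoln1 had every old library above the young ones. The share of Mcoln1 among the 3 channel genes was 42.1% to 42.8% in old and 44.4% to 47.7% in young, with no overlap.

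Members with and without CACGTG in their window were then set side by side. Of the 9, all 9 had log2 changes above 0, beside 26 of all 33 tested members and 53.1% of all genes. Their median was 0.14, with a range from 0.02 for Atp6v0b to 0.27 for Mcoln1. The changes of Atp6v0b, Lamtor4 and Rragc turned below 0 after rescaling to TPM, which moved the median of all tested genes to -0.04. The 18 tested members whose windows lacked those letters had a median of 0.07, 12 above and 6 below 0, and included both the largest change, Atp6v0a1, and the lowest, Atp6v0c. The 6 members with no window in the table had the highest median of these sets, 0.18, with 5 of 6 above 0. The ranges overlapped, and the differences were not tested.

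Some libraries stood highest or lowest for many members. Among the old libraries, replicate 3 was the highest for 18 of the 34 members, replicate 1 for 13 and replicate 2 for 3, where each took 33.3% to 33.4% of all tested genes. Old replicate 2 was the lowest for 20 of the 34 (58.8%), against 34.6% of all tested genes. For old replicate 1 this count was 13 of 34 (38.2%), near its share of 38.0% of all tested genes. In young, replicate 1 was the highest for 20 of 34 and for 7 of 8 V1 genes, against 37.9% of all genes. It was the lowest for 8 of 34, against 35.8% of all genes. These positions followed gene length in the old libraries. Across the 34 members, which share libraries, Spearman's rho between exon length and the deviation from the old mean was 0.70 in old replicate 1, -0.65 in replicate 2 and -0.36 in replicate 3. Over 10965 tested genes the same values were 0.12, -0.11 and -0.03. In old replicate 1, the shorter genes Lamtor1, Lamtor2, Lamtor4, Lamtor5 and Atp6v1f were low, while Atp6v0a1, Atp6v1c1, Fnip1 and Rptor were high. The Ragulator gene Lamtor3 was not low there. The old-minus-young change itself had a rho of 0.15 with length across members and 0.14 across all genes. The part of length in the results was not tested.

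**Figure D4:**
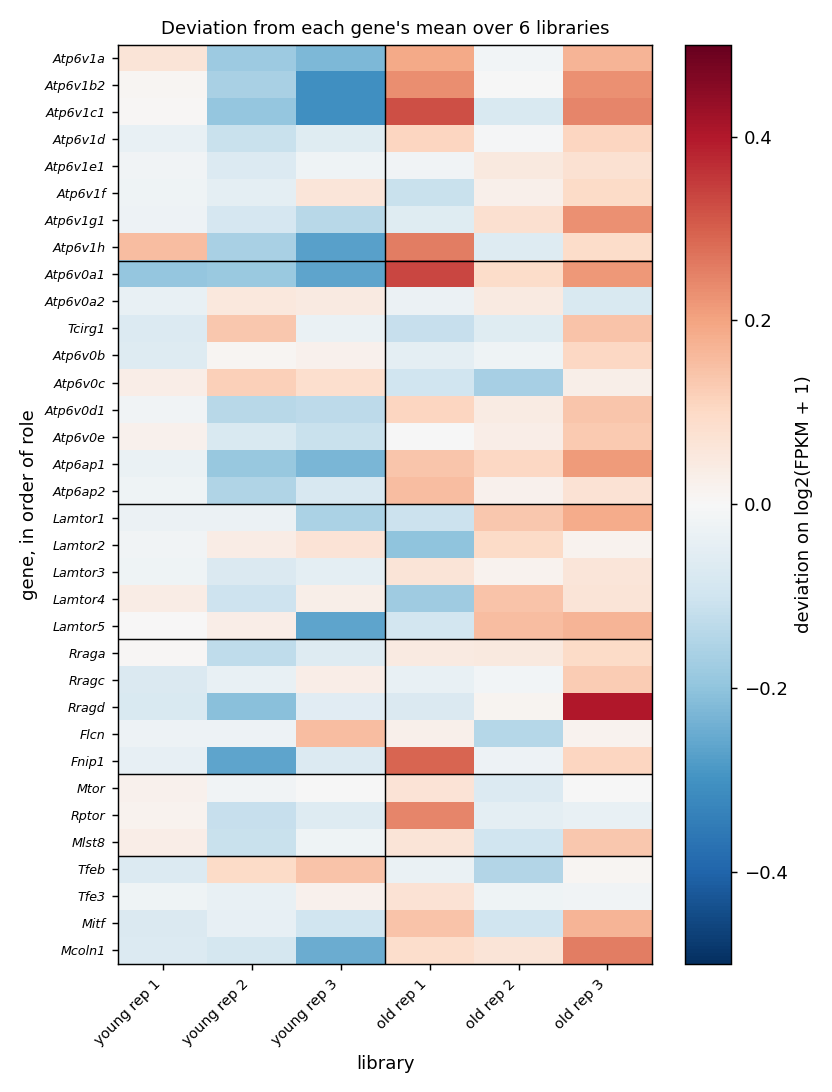
Deviation of each of the 34 members in each library from that gene's mean over the 6 libraries, on log2(FPKM + 1), with roles separated by black lines; red is above and blue below the mean. Young replicates 2 and 3 are blue for most V-ATPase genes, old replicate 1 is red for Atp6v0a1 and Atp6v1c1 but blue for Lamtor2 and Lamtor4, and the darkest red in old replicate 3 is Rragd.

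Genes around the members were described with lists of the wider pathway. Among 11 tested isoform and assembly genes of the V-ATPase, none passed, and an unadjusted p under 0.05 was reached by 3 with higher and 0 with lower levels in old, against 8.84% and 6.18% of all genes. They were Dmxl2 and Dmxl1, which encode the rabconnectins that promote assembly of the sectors, and the assembly factor gene Tmem199. Dmxl2 read 5.84, 5.09 and 5.69 FPKM in young and 7.35, 8.82 and 7.81 in old (0.46, SE 0.0857, limma adjusted p = 0.14), Dmxl1 6.83 ± 0.416 and 7.98 ± 0.394 (0.20), and Tmem199 7.97 ± 0.913 and 9.53 ± 0.335 (0.24). Atp6v0d2, the d isoform of osteoclasts and fusing macrophages, read 23.9, 25.4 and 18.5 FPKM in young and 31.1, 16.9 and 27.6 in old. Its groups overlapped, and its direction changed when young replicate 3 or old replicate 1 was left out. Osteoclast-type markers did not overlap between groups, at a sum over 8 genes of 168 to 234 FPKM in young and 107 to 118 in old. Oscar and Calcr among them were near 0, at most 0.148 FPKM in any library, and the part of such cells in the pump values was not tested.

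Genes that feed signals to mTORC1 showed no common direction. Of 24 tested, none passed in limma, an unadjusted p under 0.05 was reached by 0 with higher and 1 with lower levels in old (8.84% and 6.18% of all genes), 12 had changes above and 12 below 0, and the median log2 change was 0.00. Castor1, an arginine sensor, read 6.32, 5.48 and 8.17 FPKM in young and 4.05, 4.54 and 4.30 in old, all below the young libraries (-0.52, SE 0.129, limma adjusted p = 0.178). The related Castor2 was at 5.17 ± 0.417 and 6.15 ± 0.801 FPKM with overlap (0.21, limma adjusted p = 0.381), and Wdr24, of the GATOR2 complex, was at 4.60 ± 0.253 and 3.94 ± 0.513 (-0.18, limma adjusted p = 0.405). Rheb, the GTPase that switches mTORC1 on, was at 8.91 ± 0.241 and 9.39 ± 0.564 FPKM (0.07). Of 12 partners and substrates of the mTOR complexes none passed in limma, an unadjusted p under 0.05 was reached by 1 with higher and 0 with lower levels in old, against the same shares of all genes, and 7 had changes below 0. Prr5l and Mapkap1, both of mTORC2, had changes of 0.32 and 0.15, and the S6 kinase gene Rps6kb2 of -0.19.

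The last lists concern lysosomal ion channels and TFEB targets. Among 12 tested regulators of MiT/TFE factors and ion channels, none passed, and an unadjusted p under 0.05 was reached by 3 with higher and 0 with lower levels in old (8.84% and 6.18% of all genes). Clcn7, the chloride-proton exchanger of lysosomes, read 30.2, 30.8 and 27.1 FPKM in young and 37.7, 33.3 and 40.5 in old (0.33, SE 0.092, limma adjusted p = 0.208). Pikfyve, the lipid kinase whose product opens TRPML1, was at 4.39 ± 0.215 and 5.04 ± 0.0922 FPKM (0.17, limma adjusted p = 0.305). Among 27 genes of the CLEAR network, described as TFEB targets, none passed, while an unadjusted p under 0.05 was reached by 15 with higher and 1 with lower levels in old, against 8.84% and 6.18% of all genes. Their median log2 change was 0.25, beside 0.17 for the 17 V-ATPase members, 0.08 for the other 16 tested members and 0.01 for all genes. Glb1 and Naglu, which encode hydrolases, had changes of 0.36 and 0.49 (limma adjusted p = 0.145 and 0.172). The lists hold genes that share libraries and were chosen with earlier results of these data known, and the differences between them were not tested.

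**Figure D5:**
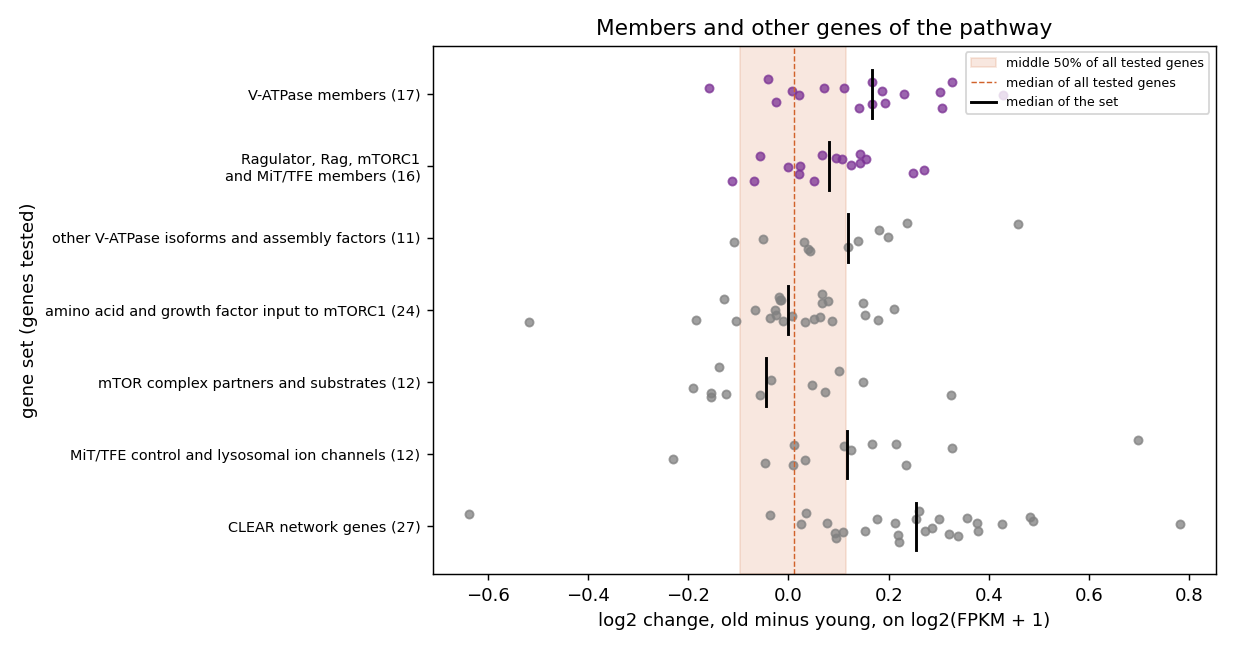
Log2 change (old minus young, on log2(FPKM + 1)) of each tested gene, for the members in purple and for 5 lists of other pathway genes in grey; black bars are set medians, the dashed line is the median of all tested genes and the shaded band holds the genes between the lower and the upper quartile. Medians run from -0.05 for partners and substrates of the mTOR complexes to 0.25 for the CLEAR network.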

How the data were processed

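The authors deposited 1 table of FPKM per gene for 6 libraries, without raw counts. Per the submitters' processing notes, the genome build was GRCm38.p6. The sources used here do not give the aligner, the counter, the strandedness or the annotation release, so fragments of overlapping opposite-strand genes cannot be told apart. Lrrc51 shares 18.7% of the exon bases of Lamtor1 (0.886 and 1.19 FPKM in young and old), and Bricd5, listed at 0, shares 22.5% of those of Mlst8. Positions and exon lengths came from GENCODE release M21, which held 99.14% of the identifiers. FPKM times exon length gave whole multiples of 1 fragment (tolerance 0.02, multiples below 200) in 97.5% to 97.6% of values, from which fragments were recovered.

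Old was compared with young by limma 3.58.1 (R 4.3.3) on log2(FPKM + 1) with a mean-variance trend, for genes averaging 1 FPKM or more. The fit was tested on simulated data. All 34 members are named. In each list of other pathway genes the 3 of smallest p are named, together with Atp6v0d2, Tfec, Rragb and Rheb. A gene of the CLEAR network that this rule names is not reported here. Atp6v0a4, Fnip2 and Mcoln2, the markers and the overlapping genes were named after their values were seen. Members and lists were chosen with earlier results of these data known. Alternatives were a pseudocount of 0.1, no minimum level, a minimum of 5 FPKM, median-of-ratios scaling, rescaling to TPM, no trend, array weights, a replicate block, each library left out, and, added after seeing the data, limma voom on recovered fragments. Figures used Python 3.11.15 and matplotlib 3.10.9.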

Additional observations from a re-analysis of the deposited data

How the results depend on the processing

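No member passed the threshold under any of the 15 alternative settings, and 25 of the 33 tested members kept 1 sign throughout, 21 above and 4 below 0. The count of 4 called genes over the whole table became 0 with a pseudocount of 0.1, without the filter, at 5 FPKM or more and with the replicate block, 50 with array weights and 41 with limma voom, and ranged from 0 to 14 with 1 library left out. The 14 came without young replicate 1, and 0 without any other library. At those 0 counts, 2 to 11 members had an unadjusted p under 0.05 and a higher old level, as did 8 with limma voom. The shares of all genes at that unadjusted threshold are not given for these settings, so the members cannot be set apart from other genes by these counts. The median log2 change of the members was 0.0604 after rescaling to TPM, where that of all genes moved from 0.01 to -0.04. Rescaling reversed Atp6v1f (-0.055), Atp6v0b (-0.041), Lamtor4 (-0.0393), Rragc (-0.0105), Tfe3 (-0.036), and array weights reversed Mtor (0.0039). With libraries left out, reversals were seen in these ranges of log2 change, Atp6v1f -0.039 to 0.0632, Tcirg1 -0.102 to 0.0369, Atp6v0b -0.0249 to 0.0509, Lamtor2 -0.12 to 0.0284, Lamtor4 -0.0447 to 0.115, Mtor -0.0357 to 0.033, Tfe3 -0.0062 to 0.0409, Atp6v0d2 -0.0477 to 0.373. Replicate numbers are shared by the groups, but nothing in the labels says that a number marks a shared litter or day. Deviations of same-numbered libraries from their group means correlated at 0.032 to 0.054 across genes, each library best with its own number, so the replicate block is given only here. With it 0 genes and 0 members were called. The recovered depth gave every tested member at least 171 fragments per library. For groups of 3, outlying libraries were not tested.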
